A study of Mus musculus with 6 samples.

Results

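Hopx and Lenep are genes of the ocular lens whose mRNA was lower in embryonic lenses from which Gata3 was to be deleted. These 2 of the 13024 genes in the deposited count table were chosen by the difference in their CPM between the groups and by how that difference related to the crystallins, in these same libraries. Their levels, their differences between the groups and their ratios to the crystallins are therefore given as a description, with no test. RNA-Seq was performed on lenses of E14.5 mouse embryos of a mixed C57BL/6 and FVB background. Each library came from a pool of 10 lenses of 5 embryos, and each group had 3 pools. The pools labelled CKO were Gata3 f/f; Pax6-Cre, in which Cre, driven by an ectodermal enhancer and the P0 promoter of Pax6, is active in the precursors of the lens and of the cornea and eyelids. The control pools carried no Cre. They are called wild type in the sample labels, Gata3 f/f in the Methods of the study and Gata3 f/wt in its Results, so their genotype at Gata3 is uncertain.

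The lens holds a front layer of epithelial cells and a mass of fibre cells, which elongate, leave the cell cycle, fill with crystallins and finally lose their nuclei and other organelles. Gata3 is a transcription factor of the differentiating fibre. Hopx encodes a very small homeodomain protein that does not bind DNA itself and works through partners such as serum response factor (Srf) and histone deacetylases. Lenep encodes LEP503, a short protein of lens cells.

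In the RefSeq annotation of GRCm38.p6, the assembly of mm10, Hopx lay on the reverse strand of chromosome 5 at chr5:77086986-77115123, with separate start sites for its transcripts. Lenep (ENSMUSG00000078173.3) was a gene of 1 exon on the reverse strand, at chr3:89401896-89402650. The 250 bases before 2 RefSeq starts of Hopx (ENSMUSG00000059325.14) are shown because the groups differed in the mRNA made from this gene, although the gene count does not say which start was used. The first lies at chr5:77115124-77115373 and the second at chr5:77095268-77095517, and both are written on the reverse strand.
Hopx start 1: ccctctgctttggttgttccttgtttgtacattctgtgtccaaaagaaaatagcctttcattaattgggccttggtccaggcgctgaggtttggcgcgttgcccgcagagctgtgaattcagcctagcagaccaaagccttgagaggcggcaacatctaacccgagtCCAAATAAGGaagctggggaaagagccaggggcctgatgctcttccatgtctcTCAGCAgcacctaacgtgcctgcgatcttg
Hopx start 2: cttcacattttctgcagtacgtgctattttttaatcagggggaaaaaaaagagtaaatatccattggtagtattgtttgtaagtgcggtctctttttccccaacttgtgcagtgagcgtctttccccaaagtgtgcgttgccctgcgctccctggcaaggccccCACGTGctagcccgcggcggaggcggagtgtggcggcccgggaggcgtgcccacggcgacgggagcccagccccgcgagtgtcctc
Capitals mark the matches found in these windows. Before start 1 they are a CArG box, the binding sequence of Srf, 83 bases before the start, and TCAGCA, the reverse complement of the MAF half-site TGCTGA, 30 bases before it. Before start 2 the match is an E-box, CACGTG, 86 bases before the start.

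Of Lenep, stretches of 30 bases around the matches in its window are shown, written on the reverse strand. The former lies at chr3:89402651-89402680 and holds TGCTGA 7 bases before the start. The latter lies at chr3:89402766-89402795 and holds TGAGTCA, the letters searched for AP-1, 134 bases before the start. All but the nearest 22 bases of this window lie within the RefSeq gene Flad1.
Lenep MAF half-site: caaaggcagtgtccacacccttcTGCTGAg
Lenep AP-1: gtctgaaaggcTGAGTCAgcctgctcagag
Both strands were searched in 32851 RefSeq windows of this length. TGCTGA was held by 16.1% of the windows, TGAGTCA by 4.46%, CACGTG by 6.02% and a CArG box by 1.47%. The GATA letters, AGATA or TGATA followed by A or G, were found in 26.5% of windows but in none of these 3. TATAAA, in 12.4% of windows, was not there either. A match is only a run of letters, and a window without one says nothing of binding elsewhere.

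Between 15157230 and 18811104 fragments were counted per library. Counts were scaled to library size (CPM) with edgeR's TMM factors. Control replicate 2 stood apart, with the highest share of crystallin counts (16.5%, against 5.47 to 9.31% in the other pools), and values without it are given beside the main results. Gata3 itself had 202, 386 and 156 counts in control pools 1, 2 and 3, whereas the pools labelled CKO had 910, 1064 and 894. Its count over all exons was therefore higher in the pools meant to lack it. The deletion removes exon 4 alone, so a count over the whole gene does not check it. Counts per exon were not analysed here, and the groups are named by their labels. Markers of neighbouring tissue varied among the pools of both groups. The summed level of 9 mesenchyme genes was 2149 CPM in control replicate 1 and 3867 CPM in CKO replicate 2, against 228 to 472 CPM in the other pools, and 6 pigment cell genes were highest in the same pools. The sum of 10 retina genes ran from 1185 CPM in control replicate 2 to 2664 CPM in control replicate 3, with the CKO pools between them. The sum of 4 blood genes was highest in control replicate 2, at 1384 CPM against 306 to 578 CPM elsewhere. Median log2 fold changes were 0.61 for mesenchyme, 0.06 for pigment cells, 0.16 for retina, 0.34 for surface ectoderm, -0.87 for blood, -0.42 for vessels and -0.51 for macrophages. The first 4 of these changed sign when single pools were left out, and 0 genes of these lists had an adjusted p under 0.05 by edgeR, while 1 vessel and 1 macrophage gene had an unadjusted one. Both were lower, and 2.24% of all genes tested were lower with such an unadjusted p. Without control replicate 2 the median was -0.16 for blood, -0.27 for vessels and -0.25 for macrophages, and that of vessels was -0.78 without CKO replicate 2. Without control replicate 3, 7 of 8 macrophage, 5 of 8 vessel and 2 of 4 blood genes were lower without overlap. With all pools it was 0 in each list. Over all genes tested, the number was 1803 of 12862 without control replicate 3 and 604 of 12879 with all pools. The part of neighbouring tissue in the results below was not tested.

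Lenep was the more abundant of the pair. Its counts were 1601, 3496 and 1332 in control replicates 1, 2 and 3, or 101, 246 and 74.4 CPM. In CKO replicates 1, 2 and 3 they were 435, 424 and 293, or 28.2, 21.6 and 15.25 CPM. Each control pool lay above each pool labelled CKO, and the lowest control pool was 2.64 times the highest CKO pool. The mean was 141 ± 92.5 CPM (SD, n = 3) in control and 21.7 ± 6.48 CPM (SD, n = 3) in CKO lenses, 6.49-fold lower, or 4.06-fold without control replicate 2. The fitted log2 fold change was -2.70, and 0.109% of the 12879 genes tested had a lower one.

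Hopx had 223, 354 and 197 counts in control replicates 1, 2 and 3, or 14.1, 24.95 and 11.0 CPM. It had 95, 92 and 87 counts in CKO replicates 1, 2 and 3, or 6.16, 4.68 and 4.53 CPM. The groups did not overlap, with the lowest control pool at 1.79 times the highest CKO pool. The 95% exact Poisson intervals of these nearest pools, which cover counting error only, were 9.52 to 12.65 CPM in control replicate 3 and 4.98 to 7.53 CPM in CKO replicate 1. The mean was 16.7 ± 7.32 CPM (SD, n = 3) in control and 5.12 ± 0.902 CPM (SD, n = 3) in CKO lenses, 3.26-fold lower, or 2.45-fold without control replicate 2. The fitted log2 fold change was -1.70, with 0.326% of tested genes lower. In pooled tissue, fewer fibre cells and less of an mRNA per cell cannot be told apart.

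**Figure D1:**
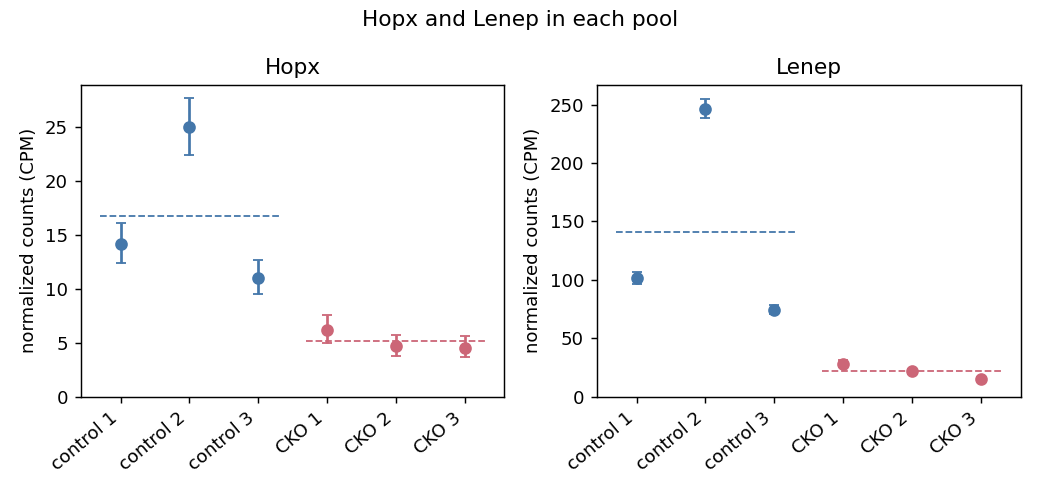
Normalized counts (CPM, linear axis from 0) of Hopx and Lenep in the 3 control and 3 CKO pools, with 95% exact Poisson intervals as bars and group means as dashed lines. All CKO pools lie below all control pools for both genes, and control replicate 2 is the highest pool, at 24.95 CPM for Hopx and 246 CPM for Lenep.

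The pools fell in the same order for both genes, from control replicate 2 through control replicates 1 and 3 to CKO replicates 1, 2 and 3. That order was shared by 93 of 11601 genes with a mean of at least 5 CPM (0.802%, both included) and by 10 of 16 crystallins. The control pools differed among themselves far more than counting error allows. The coefficient of variation in control was 43.8% for Hopx, of which counting would give 6.23%, and 65.7% for Lenep, of which counting would give 2.16%. In CKO lenses it was 17.6% for Hopx (10.5% from counting) and 29.9% for Lenep (5.1% from counting). The number of Lenep counts per Hopx count was 7.18, 9.88 and 6.76 in control replicates 1, 2 and 3. It was 4.58, 4.61 and 3.37 in CKO replicates 1, 2 and 3, so Lenep was the further lowered of the pair in these pools.

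Genes were tested where 3 or more libraries had 10 or more counts, and 604 of 12879 (4.69%) had lower and 473 (3.67%) higher CKO pools without overlap. By edgeR's quasi-likelihood test, 0 genes (0.0%) had an adjusted p under 0.05 and 457 (3.55%) an unadjusted p under 0.05, of which 289 (2.24%) were lower and 168 (1.3%) higher. DESeq2's Wald test called 85 genes (0.66%) at an adjusted p under 0.05.

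Crystallins are the structural proteins that fill the fibre cell. The share of the library that fell on their 16 genes was 9.31, 16.5 and 6.63% for control replicates 1, 2 and 3 and 7.27, 5.96 and 5.47% for CKO replicates 1, 2 and 3. The summed crystallins overlapped between the groups, since CKO replicate 1 lay above control replicate 3. Taken singly, 10 of the 16 were lower without overlap, beside 4.69% of all genes tested. Hopx and Lenep did not overlap either, but they were chosen for their difference. Within the control group the 3 quantities moved together. From control replicate 3 to control replicate 2 the crystallin sum differed 2.95-fold, Hopx 2.27-fold and Lenep 3.31-fold. Between the groups they did not keep the same proportion, with a control mean 1.92-fold the CKO mean for the crystallin sum (1.31-fold without control replicate 2), 3.26-fold for Hopx and 6.49-fold for Lenep.

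Set against 10000 crystallin counts, the spread of the control pools narrowed. There were 10.9, 13.01 and 11.6 Lenep counts per 10000 crystallin counts in control replicates 1, 2 and 3, and 3.95, 3.78 and 2.93 in CKO replicates 1, 2 and 3. The highest control value was 1.2 times the lowest, and the mean log2 ratio in CKO minus that in control lenses was -1.74. For Hopx the ratios were 1.51, 1.32 and 1.71 in control and 0.863, 0.821 and 0.869 in CKO replicates 1, 2 and 3. The difference of the mean log2 ratio was -0.82 and the groups did not overlap. Ratios below control without overlap were found for 68 of 12879 genes (0.528%), while the median over all genes tested was 0.81. For most genes the ratio to crystallins was thus higher in the pools labelled CKO.

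**Figure D2:**
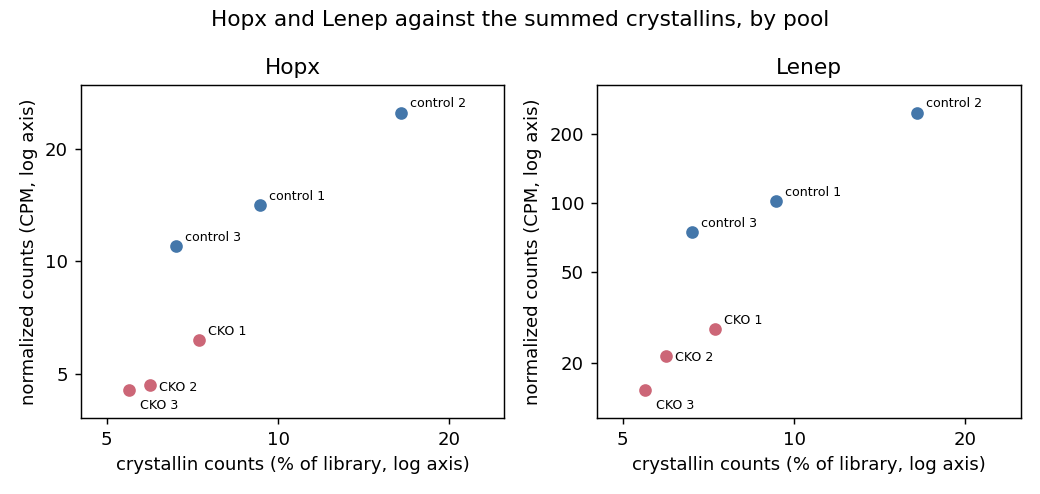
Normalized counts (CPM) of Hopx and Lenep against the share of crystallin counts in the library (%), both on log axes, with 1 point for each of 6 pools. CKO replicate 1 holds a larger share of crystallin counts than control replicate 3 (7.27 against 6.63%), but less Hopx (6.16 against 11.0 CPM) and less Lenep (28.2 against 74.4 CPM).

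The choice of crystallins mattered for Hopx. Gamma crystallins mark later fibre differentiation, and they took 2.25, 4.23 and 1.6% of counts in control and 1.15, 0.91 and 0.767% in CKO replicates 1, 2 and 3. Per 10000 gamma crystallin counts, Hopx had 6.27, 5.13 and 7.1 counts in control replicates 1, 2 and 3 and 5.46, 5.37 and 6.2 in CKO replicates 1, 2 and 3. The groups overlapped, and the mean log2 ratio differed by -0.11. Lenep had 45.0, 50.6 and 48.0 counts in control and 24.99, 24.8 and 20.9 in CKO replicates 1, 2 and 3 on this scale, without overlap and with a log2 difference of -1.03. Against the alpha and beta crystallins alone the log2 difference was -1.0 for Hopx and -1.92 for Lenep.

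The crystallins did not move as a block. Of 16, 15 had a negative log2 fold change, 10 were lower without overlap and 10 had an unadjusted p under 0.05 by edgeR, with 0 past the adjusted threshold and a median of -1.19 (-0.63 without control replicate 2). Among all 12879 genes tested, 4.69% were lower without overlap and 2.24% were lower with such an unadjusted p. The gamma crystallin genes Crygf (-3.63) and Crygb (-2.67) were at the low end. Crygd (-1.73) and Crygc (-1.64) stood next to Hopx in the order of fold changes. Cryaa and Cryab, the alpha crystallins, were at -0.55 and 0.14, with overlapping groups.

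Genes of fibre maturation held a similar range. Of 18 listed, 17 were in the table, 16 had a negative fold change, 7 were lower without overlap, 9 had an unadjusted p under 0.05 and 0 an adjusted one, with a median of -1.04 (-0.39 without control replicate 2). A lower level with an unadjusted p under 0.05 by edgeR was found for 2.24% of all genes tested. The number lower without overlap was 14 without control replicate 3 and 11 without CKO replicate 1. Over all genes tested it rose as well, from 604 of 12879 with all pools to 1803 of 12862 and 1120 of 12875. Dnase2b, the nuclease that degrades fibre cell DNA, was at -4.64, Birc7, of the inhibitor of apoptosis family, at -3.67, and Bfsp1, the beaded filament protein filensin, at -2.72. Lenep came next, at the fifth place of 35 genes, and Hopx was at the eighth. Bfsp2, the partner of Bfsp1, was at -1.55. The lens channel genes Mip (-0.85) and Gja3 (-0.69) had overlapping groups. As ratios to the summed crystallins, 8 of the 17 fibre genes were lower and 6 higher without overlap, beside 68 lower and 2427 higher of the 12879 genes tested. The ratio differed by -3.77 for Dnase2b and by 0.54 for Grifin on the log2 scale. For Bfsp1 it differed by -1.73, close to the -1.74 of Lenep. Dnase2b and Birc7 were near the floor in CKO lenses, at 0.582 ± 0.348 and 0.694 ± 0.249 CPM (SD, n = 3). The sizes of their differences therefore rest on few counts.

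**Figure D3:**
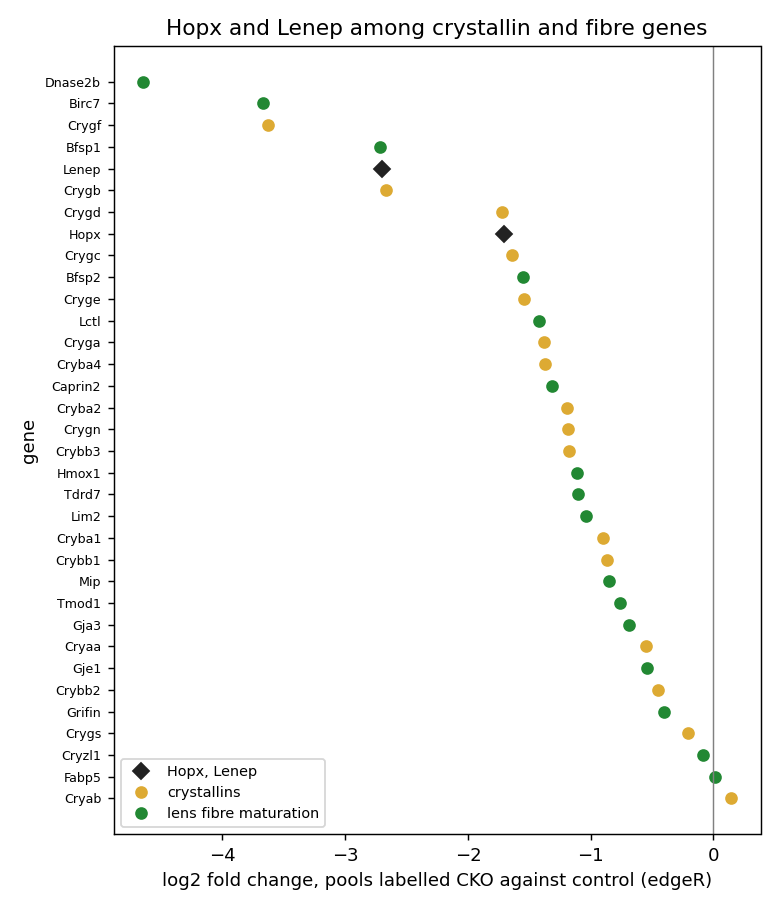
Log2 fold change of pools labelled CKO against control (x axis, edgeR fit over 6 pools) for Hopx and Lenep, 16 crystallins and 16 of the 17 fibre maturation genes, in order. Lenep (-2.70) lies between Bfsp1 and Crygb, and Hopx (-1.70) between Crygd and Crygc. The points carry no error bars.

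Levels were compared per kilobase with those of the crystallins and fibre maturation genes alone. Per kilobase of GENCODE exon, Lenep had 77.9 ± 51.2 CPM (SD, n = 3) in control lenses. It ranked 25 of the 35 genes in control, between Grifin (151 CPM per kilobase) and Caprin2 (56.0), whose ranges overlapped its own. This scale depends on the gene model, since GENCODE gives Lenep 1806 exon bases and RefSeq 755, with which its level was 186 ± 122.5 CPM per kilobase in control and 28.7 ± 8.58 in CKO lenses (SD, n = 3). With that length Lenep would stand between Tdrd7 (209) and Gja3 (180) in control, above Grifin, the other genes keeping their GENCODE lengths. Hopx had 11.0 ± 4.83 CPM per kilobase in control and 3.38 ± 0.595 in CKO lenses (SD, n = 3). It ranked 30 of 35, between Tmod1 (13.2) and Cryzl1 (9.18), whose ranges also overlapped its own. Cryaa, the most abundant of these genes, reached 19390 CPM per kilobase in control.

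The genes whose pattern over the 6 pools was most like each of the pair were found by Pearson's r of log2 CPM, as a description over pools that share a group structure and a pool that stands apart. For Lenep these were Crygb (r = 0.999), Pgam2, a phosphoglycerate mutase (0.998), Ggct, an enzyme of glutathione turnover (0.997), Gadd45b (0.996), Bfsp1 (0.996), Hopx (0.996), Myo7b (0.996), Crygf (0.995), Ints6l (0.995) and Gm20757 (0.994). For Hopx they were Trpc6, a cation channel (0.999), Ints6l (0.999), Lenep (0.996), Pgam2 (0.996), Ggct (0.994), Bfsp1 (0.994), Crygb (0.993), Rnf113a1 (0.993), Myo7b (0.993) and Gadd45b (0.992). Of each list of 10, 7 were in both. Without control replicate 2 the 10 genes most like Hopx included 3 of these, and those most like Lenep 7. After the group means were taken out, the highest r with Hopx were those of Sptan1, 6030458C11Rik, Herc4, Dmtn and Tmprss5, and with Lenep those of Lamtor4, Crygc, Myo7b, Dgkg and Ggct. Of these, Tmprss5 (0.50) and Dgkg (1.47) had positive log2 fold changes, unlike Hopx and Lenep, and the others had negative ones. Gata3 had an r of -0.61 with Hopx and -0.62 with Lenep over the 6 pools, but 0.97 and 0.96 once group means were taken out. Within the control group, the pool with the highest Gata3 count was also the highest in Hopx, Lenep and crystallins.

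The partners of Hopx were compared with it because its protein acts through them. Of 15 listed, 12 were in the table, and none of these 12 was without overlap or had an unadjusted p under 0.05 by edgeR, against 3.55% of all genes tested. Their median log2 fold change was 0.04 (-0.01 to 0.07 with single pools left out), beside 0.00187 over all genes tested. Srf was at 41.0 ± 3.69 CPM in control and 44.0 ± 1.83 CPM in CKO lenses (SD, n = 3), and the histone deacetylase Hdac2 at 244 ± 35.9 and 254 ± 8.14 CPM. Of 21 targets of Srf, 18 were in the table and 0 had an unadjusted p under 0.05. Their median was -0.01, which changed sign with the library size as the only scaling (0.11), and they ran from -0.55 for Junb to 0.64 for Acta2, a smooth muscle actin. Actb, a cytoplasmic actin, was the only target higher without overlap, beside 3.67% of all genes tested. It was at 1737 ± 45.1 CPM in control and 1837 ± 50.01 CPM in CKO lenses (SD, n = 3). Its log2 fold change was 0.08.

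Of 18 transcription factors of the lens, 1 was lower and 2 were higher without overlap. By edgeR 1 each had an unadjusted p under 0.05 in either direction, with 0 adjusted calls. Over all genes tested, 4.69% were lower and 3.67% higher without overlap, and 2.24% and 1.3% had such an unadjusted p. Hsf4, a heat shock factor of the fibre, was lower at 80.7 ± 42.9 CPM in control and 36.4 ± 5.28 CPM in CKO lenses (SD, n = 3), with a log2 fold change of -1.15 and an adjusted p of 0.9998 by edgeR. Gata3 and Jun were higher without overlap. Without control replicate 2, 2 factors were lower and 6 higher without overlap, and 5 with a positive fold change had an unadjusted p under 0.05 by edgeR, against 1 with all pools. Of all 12860 genes tested without that pool, 1229 were lower and 1580 higher without overlap. A positive fold change with such a p was found for 489 of them. Maf, a regulator of crystallin genes, was at 546 ± 283 and 387 ± 46.6 CPM, with overlapping groups. The 10 genes of the lens epithelium had overlapping groups and a median of -0.26, with negative fold changes in 10 of 10. The sign was negative for 5 of 10 without control replicate 2 (median -0.02) and for 6 of 10 with library size as the only scaling. Without control replicate 3 the median was -0.5 with 3 genes lower without overlap, beside 1803 of all 12862 genes tested.

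Genes within 200 kb were examined for a difference shared along the chromosome. Around Hopx, 7 genes were tested and their log2 fold changes ran from -0.24 to 0.08. Paics, an enzyme of purine synthesis, was the only 1 of them with an unadjusted p under 0.05 by edgeR (0.0425, adjusted p = 0.9998). Around Lenep, 20 genes were tested, with a median of -0.09, and Zbtb7b and Shc1 had an unadjusted p under 0.05 by edgeR. Such a p was found for 3.55% of all genes tested. Zbtb7b, which encodes a zinc finger transcription factor, lies 8223 bases from Lenep at chr3:89377644-89393673. It had 593, 1508 and 626 counts in control replicates 1, 2 and 3 and 262, 266 and 249 in CKO replicates 1, 2 and 3. The groups did not overlap, with means of 59.6 ± 40.4 and 14.49 ± 2.18 CPM (SD, n = 3). The log2 fold change was -2.04 (SE 0.46), with an adjusted p of 0.638 by edgeR, while DESeq2's Wald test gave an adjusted p of 4.41e-04, and the alternatives ran from that value to 1. Without control replicate 2 its log2 fold change was -1.31, with an adjusted p of 0.056 by edgeR. Shc1, an adaptor of receptor signalling, was at 197 ± 75.2 and 112 ± 8.88 CPM (SD, n = 3), with a fold change of -0.81 on the log2 scale (SE 0.26, edgeR adjusted p = 0.9998), or -0.46 without control replicate 2.

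**Figure D4:**
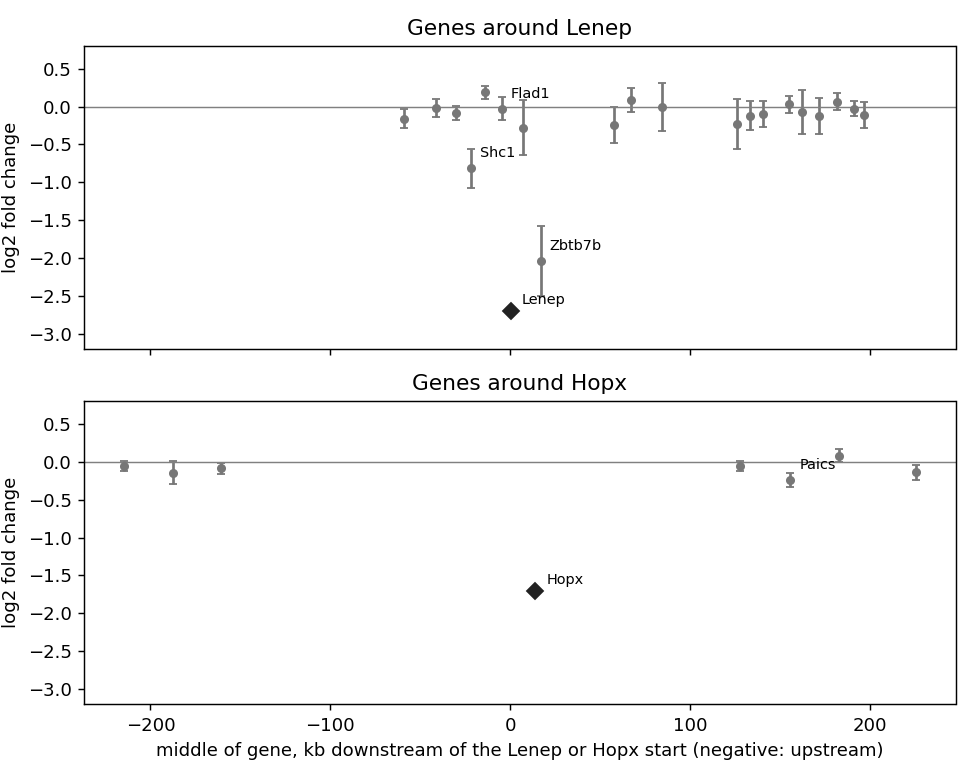
Log2 fold change of pools labelled CKO against control for tested genes within 200 kb of Lenep (20 genes) and Hopx (7 genes), by distance in kb from the start of Lenep or Hopx. Bars are the standard errors from edgeR, and the diamonds for Lenep and Hopx have none. Zbtb7b (-2.04) and Shc1 (-0.81) lie below the other neighbours of Lenep, and the neighbours of Hopx lie between -0.24 and 0.08.

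The next gene upstream of Lenep on the same strand is Flad1, an FAD synthase. In GENCODE the exons of Flad1 and Lenep share 1790 of the 1806 Lenep bases (99.1%), whereas in RefSeq, the annotation counted here, they are 22 bases apart. Flad1 had 412, 518 and 469 counts in control and 483, 557 and 528 in CKO replicates 1, 2 and 3, with overlapping groups and a log2 fold change of -0.03 that turned to 0.09 with library size as the only scaling. Fragments that run across the boundary of these genes would be uncertain. Hopxos, an antisense RNA, lies within Hopx and shares 412 of its 1516 GENCODE exon bases (27.2%). In RefSeq, Hopxos spans chr5:77098830-77102313. That lies between the GENCODE exons of Hopx at chr5:77095151-77095277 and chr5:77114847-77115121. The study's Methods describe the libraries as strand-specific, but the strand option of the counting was not given in the sources used here. Unless strand was used, reads from the antisense RNA at the bases shared in GENCODE cannot be told apart from those of Hopx.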

How the data were processed

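RNA-Seq counts of 6 libraries were analysed. According to the labels and the study's methods, the authors trimmed reads with Trim Galore, aligned them to mm10 with TopHat2 2.0.13, counted fragments per RefSeq gene with HTSeq 0.6.1, and deposited raw counts, without normalization, for genes above an FPKM filter. How HTSeq treated strand and overlapping genes is not given in the sources used here. Titles number the CKO pools 1 to 3, descriptions 2 to 4, and title numbers were used. The table held 0 per-sample columns that were not used.

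Counts were scaled by TMM and fitted in edgeR 4.0.16 (R 4.3.3) by the robust quasi-likelihood method (glmQLFit, glmQLFTest), and p-values were adjusted (Benjamini-Hochberg, 0.05) for the 12879 genes that had 10 or more counts in 3 or more libraries. Patterns used log2 CPM with a prior count of 1, and ratios over all genes an offset of 0.5. Library sizes were 15157230 to 18811104, and the spread between control pools exceeded the counting error of both genes. DESeq2 1.42.0, limma 3.58.1 voom, other scalings and filters, a replicate block and each library left out in turn were alternatives. The tests were tried on simulated data. Positions and windows came from RefSeq and GENCODE M21, both on GRCm38.

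Hopx, Lenep, the 13 gene lists and the rules were chosen with earlier results of these data known. Named genes are Hopx and Lenep, listed genes, genes within 200 kb, and those most alike over the pools (10 each over the pools, 5 each after group means are taken out). Values of 1 fibre maturation gene are not reported here singly and are not plotted, but it is kept in the counts and medians of its list. Likeness without control replicate 2 was added after seeing the data.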

Additional observations from a re-analysis of the deposited data

How the results depend on the processing

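Both genes stayed lower in the pools labelled CKO under the settings tried. With single pools left out, the log2 fold change ran from -1.93 to -1.29 for Hopx and from -3.01 to -2.01 for Lenep, in both cases nearest to 0 without control replicate 2. A prior on fold changes in DESeq2, which shrinks them by construction, gave -0.62 and -0.7. The difference in the log2 ratio of Hopx was -1.0 against alpha and beta crystallins and -0.11 against gamma crystallins. It was -1.07 against the fibre list and -0.49 against the geometric mean of the crystallins. Against the summed crystallins it ran from -0.92 to -0.73 with single pools left out. For Lenep it was -1.03 against gamma crystallins, -1.99 against the fibre list and -1.41 against the geometric mean. Against the summed crystallins it ran from -1.83 to -1.61 for Lenep with single pools left out. Adjusted calls numbered 85 in DESeq2's Wald test, 1 with library size as the only scaling and 0 to 1 with single pools left out (1 without control replicate 3). Unadjusted calls ranged from 271 to 1234 (806 without control replicate 2, 1234 without control replicate 3, 271 without CKO replicate 3). The median of the fibre list ran from -1.31 to -0.39 and that of the crystallins from -1.46 to -0.63, and the causes were not tested. Of the 13 list medians, 7 changed sign under at least 1 setting. With single pools left out, the mesenchyme median ran from -1.32 to 2.02, pigment cells from -1.08 to 1.33, retina from -0.1 to 0.48, surface ectoderm from -0.26 to 0.53, transcription factors from -0.06 to 0.04, and Srf targets from -0.23 to 0.1. Flad1 turned to 0.09 with library size only, and ran from -0.11 to 0.16 with single pools left out (0.16 without control replicate 2, 0.01 without CKO replicate 3). Of the 10 genes most like Hopx, patterns without group means shared 0 and patterns without control replicate 2 shared 3. For Lenep these were 3 and 7. Spearman's rho shared 1 for each gene, but it cannot rank the most alike genes. The 93 of 11601 genes with the same pool order, both included, tie in rho, so this number says nothing of likeness. Pools with the same title number did not all deviate together (r of deviations -0.49, 0.09 and 0.44). With 3 pools in a group, these values cannot decide whether pools were paired. With a replicate block there were 0 adjusted and 516 unadjusted calls, Hopx was at -1.63 and Lenep at -2.55, and not every pool correlated best with its own number. With 3 pools in a group, the spread between pools limits the precision in control lenses, while for Hopx in CKO lenses counting error is a large part of it.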
